A study of Homo sapiens with 40 samples.

Results

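The genes described here are 7 genes of the liver X receptor (LXR) pathway: the receptors NR1H2 (LXR-beta) and NR1H3 (LXR-alpha), and the LXR target genes ABCA1, ABCG1, APOE, MYLIP and LPCAT3. A gene was taken where a probe set of the platform annotation carried its symbol and no other. That held for 6 of the 7 genes, with 1 probe set each, among 18417 genes measured in the whole study. NR1H2 is not analysed here, so the receptor side rests on NR1H3.

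LXRs are nuclear receptors that sense oxysterols, the oxidised products of cholesterol, and bind DNA as a pair with a retinoid X receptor (RXR). When a ligand is bound, they switch on genes that move cholesterol out of the cell (ABCA1, ABCG1, APOE), that lower its uptake (MYLIP) and that remodel membrane phospholipids (LPCAT3). Oxysterols are made from cholesterol and its precursors, so both drugs of this study act upstream of the LXR ligands: statins block HMG-CoA reductase, and the bisphosphonate zoledronate blocks farnesyl diphosphate synthase, further down the mevalonate pathway.

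RNA was measured on 40 arrays of MDA-MB-231, an established human breast cancer cell line without oestrogen receptor, in 10 groups of 4 independent replicates. The first lot (lot I) comprised mock-treated controls, 30 µM zoledronate and 2 µM fluvastatin after 12 h and after 24 h. In the other (lot II) there were controls with 30 µM zoledronate after 48 h, and a separate set of controls with 100 µM zoledronate after 24 h. Controls were mock-treated with solvent at the same time points and all groups grew in medium with fetal bovine serum. Within lot I, zoledronate and fluvastatin of one time point share their 4 control arrays. Dose or duration and lot cannot be told apart for the 48 h and 100 µM groups, except through each lot's own controls.

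Values are log2 signals of the deposited table, and a difference is treated minus control of the same lot, time and replicate number, with n = 4 pairs. Its standard error (SE) and 95% interval come from a limma fit over all 40 arrays. A gene is said to have risen or fallen where limma's Benjamini-Hochberg adjusted p over 18417 genes was under 0.05. In bulk RNA, fewer cells that carry a transcript and less of it per cell cannot be told apart. The median of an array lay between 6.19 and 6.33 over all probe sets, and between 6.95 and 7.03 over the 18417 genes. Over these genes, its correlation with the other arrays of its group lay between 0.987 and 0.998. The lowest correlation belonged to replicate 2 of the 48 h zoledronate group, and 48 h calls that were lost without that pair are given both ways. The line's 5 markers were high on every array (VIM 11.76 to 12.48, KRT18 11.27 to 11.86, KRT8 10.66 to 11.95, CD44 10.84 to 11.49, EGFR 8.87 to 9.93). Of 3 luminal receptors, ESR1 lay between 4.45 and 5.33, PGR between 4.21 and 5.00 and ERBB2 between 7.61 and 8.32. RHOB, a small GTPase gene known to be induced when protein prenylation is blocked, was used as a check of drug action: it rose by 1.48 ± 0.21 (SE) with fluvastatin at 12 h, 1.74 ± 0.21 at 24 h, 1.11 ± 0.21 with 30 µM zoledronate at 48 h and 3.01 ± 0.21 with 100 µM. With 30 µM zoledronate at 24 h it differed by 0.37 ± 0.21 (limma, adjusted p = 1).

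LXR and RXR bind 2 AGGTCA sites in a row, 4 bases apart, the DR4 element. The 250 bases before the start of ABCA1 and of NR1H3 are shown because these were the 2 genes of the set that passed the test with a drug, in opposite directions, and because an LXR element close to the ABCA1 start is well known. Both are from RefSeq (GRCh38.p14), and capitals mark matches to the motifs searched. The ABCA1 window lies at chr9:104928156-104928405 on the minus strand, and the NR1H3 window, 1 of 4 listed, at chr11:47257457-47257706 on the plus strand.
ABCA1: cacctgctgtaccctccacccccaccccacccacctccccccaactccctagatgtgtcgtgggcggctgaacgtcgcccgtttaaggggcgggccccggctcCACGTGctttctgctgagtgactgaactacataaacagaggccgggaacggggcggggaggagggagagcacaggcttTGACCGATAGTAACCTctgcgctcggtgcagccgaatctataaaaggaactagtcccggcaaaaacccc
NR1H3: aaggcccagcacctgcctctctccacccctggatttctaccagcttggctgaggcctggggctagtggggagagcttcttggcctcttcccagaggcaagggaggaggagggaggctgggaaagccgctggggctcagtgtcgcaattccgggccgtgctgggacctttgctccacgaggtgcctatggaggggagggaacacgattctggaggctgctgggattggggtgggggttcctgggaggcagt
The search took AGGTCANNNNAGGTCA on both strands with up to 2 mismatches in its 12 fixed positions, and the palindrome CACGTG (an E-box) with none. The ABCA1 window held 1 DR4 match with 2 mismatches, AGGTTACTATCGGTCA on the opposite strand, beginning 69 bases before the start. It also held 1 CACGTG, 147 bases before the start. The 4 windows of NR1H3, the 3 of APOE and those of MYLIP, LPCAT3 and NR1H2 held neither, which says only that these letters are not in these windows. Of 35116 such windows, 2.03% held a DR4 match and 6.34% held CACGTG. ABCG1 is named only.

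Of the 6 measured genes, NR1H3 rose in 3 treated groups and ABCA1 fell in 1, while ABCG1, APOE, MYLIP and LPCAT3 passed the test in none of the 6 treated groups. NR1H3, the receptor, was higher after 24 h of fluvastatin (1.38-fold), after 48 h of 30 µM zoledronate (1.25-fold) and after 24 h of 100 µM zoledronate (1.58-fold). With fluvastatin at 24 h 6.71% of all genes rose and 3.77% fell, against 1 and 0 of the 6 members. With zoledronate at 48 h 3.16% rose and 4.43% fell, against 1 and 0 members. At 100 µM 15.3% rose and 16.6% fell, against 1 and 1 members. With so few members, these counts are not read as a property of the set. The members' median difference was 0.00 with fluvastatin at 24 h, 0.20 with zoledronate at 48 h and 0.15 at 100 µM, and the median of all genes was −0.01, 0.01 and 0.01.

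**Figure D1:**
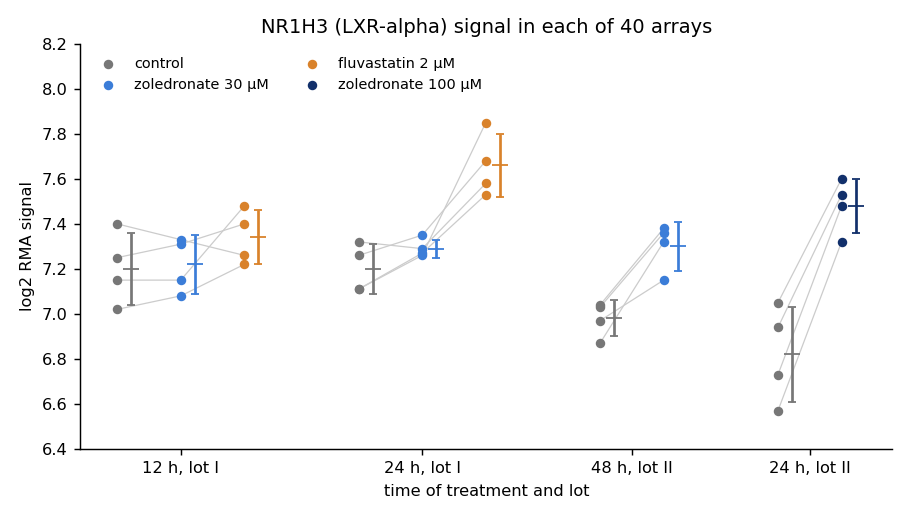
NR1H3 log2 signal (y axis) on each of the 40 arrays, by time and lot (x axis); grey lines join arrays of the same replicate number, and the mark with bar is the mean ± SD of 4 arrays. All fluvastatin arrays at 24 h, all 48 h zoledronate arrays and all 100 µM arrays sit above every control array of their own time and lot.

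NR1H3 encodes LXR-alpha, the receptor form that is enriched in liver, fat and macrophages. On the 24 h control arrays of lot I its signal was 7.11, 7.11, 7.32 and 7.26, and on the fluvastatin arrays of that time 7.85, 7.53, 7.58 and 7.68. Every fluvastatin array lay above every control, and the difference was 0.46 ± 0.07 (SE; limma, adjusted p = 0.00054), with pairs between 0.27 and 0.74. On the 48 h control arrays it was 6.87, 6.97, 7.04 and 7.03, and on the 30 µM zoledronate arrays 7.32, 7.15, 7.38 and 7.36. These groups did not overlap either, and the difference was 0.33 ± 0.07 (limma, adjusted p = 0.0088), higher in 4 of 4 pairs. This call is the less secure: adjusted p was 0.063 without the replicate block, 0.22 with only the arrays of the comparison, and 0.077, 0.06 and 0.062 without replicate 1, 3 or 4. On the lot II controls at 24 h the signal was 6.57, 6.73, 6.94 and 7.05, and at 100 µM zoledronate 7.32, 7.48, 7.53 and 7.60. All 4 treated arrays again lay above all controls, with a difference of 0.66 ± 0.07 (limma, adjusted p = 2.3e-07) and pairs from 0.56 to 0.75. The 100 µM rise passed under 14 of 14 alternative settings. The fluvastatin rise passed under 13 of 14, and missed with only its own arrays at the same size, 0.46 ± 0.09 (adjusted p = 0.086), where 2 of all genes passed.

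In the 3 other treated groups NR1H3 overlapped its controls. Control arrays at 12 h gave 7.02, 7.40, 7.15 and 7.25, zoledronate arrays 7.08, 7.33, 7.15 and 7.31, and fluvastatin arrays 7.22, 7.26, 7.48 and 7.40. The 12 h differences were 0.01 (95% interval −0.14 to 0.17) with zoledronate and 0.14 (−0.02 to 0.29; limma, adjusted p = 0.43) with fluvastatin. With 30 µM zoledronate at 24 h the arrays gave 7.26, 7.27, 7.29 and 7.35, a difference of 0.09 (−0.06 to 0.24; adjusted p = 1). At 30 µM, 0% of all genes passed at 12 h and 0% at 24 h, with 511 and 866 of 18417 at an unadjusted limma p under 0.05, and 0 in both without the replicate block. None of the 6 members had an unadjusted p under 0.05 in either group. With fluvastatin at 12 h 0.874% of all genes passed and 0 of 6 members, none of which had an unadjusted p under 0.05.

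The effects on NR1H3 were also compared with each other. At 12 h both drugs differed by −0.12 (95% interval −0.28 to 0.03; limma, adjusted p = 0.52), where 0.738% of all genes passed and 0 of 6 members. At 24 h the signal was lower with 30 µM zoledronate than with 2 µM fluvastatin by −0.37 ± 0.07 (limma, adjusted p = 0.0042), in a contrast where 4.30% of all genes were lower with zoledronate. That difference was −0.30 without replicate 1 (adjusted p = 0.12), the fluvastatin replicate with the highest value of 7.85. The effect of 100 µM zoledronate at 24 h exceeded that of 30 µM at 24 h by 0.57 ± 0.11 (adjusted p = 0.00037), where 9.20% of all genes had the larger value at 100 µM. It exceeded the 48 h effect of 30 µM by 0.34 ± 0.11 (adjusted p = 0.048; 3.91% of all genes), a call that passed under only 5 of 15 alternatives. Both of these set lot II against its own controls, and the first also sets it against lot I. Between 100 µM zoledronate and fluvastatin at 24 h the effects differed by 0.20 (−0.02 to 0.42; adjusted p = 0.29), where 5.78% of all genes passed and 0 of 6 members. The fluvastatin effect differed by 0.33 (0.11 to 0.54) between 24 h and 12 h, which did not pass over all genes (adjusted p = 0.29); by limma 0% of all genes passed there, with 2014 at an unadjusted p under 0.05. For zoledronate at 30 µM the same step was 0.08 (−0.14 to 0.30; adjusted p = 1).

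The control arrays themselves differed between lots. At 24 h the NR1H3 signal averaged 6.82 ± 0.21 (SD, n = 4) in lot II and 7.20 ± 0.11 in lot I, a difference of −0.38 ± 0.09 (SE; limma, adjusted p = 0.005), and the controls did not overlap. ABCA1 went the other way, 6.56 ± 0.36 (SD, n = 4) in lot II and 6.05 ± 0.18 in lot I, by 0.51 ± 0.18 (limma, adjusted p = 0.048), with overlap. In this contrast 6.15% of all genes were higher and 9.57% lower in lot II, against 1 and 1 of the 6 members. The ABCA1 difference missed the threshold without replicate 2, 3 or 4 (adjusted p = 0.25, 0.19 and 0.095), and that of NR1H3 without replicate 3 (adjusted p = 0.054). Within a lot, no member passed between control times: NR1H3 differed by 0.16 (−0.03 to 0.35; adjusted p = 0.52) between 48 h and 24 h in lot II, where 1.02% of all genes passed, and ABCA1 by 0.15 (−0.22 to 0.52; adjusted p = 1) between 24 h and 12 h in lot I, where 0% passed with 853 at an unadjusted limma p under 0.05.

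Ordered by mean, NR1H3 was highest with fluvastatin at 24 h (7.66 ± 0.14, SD, n = 4), then with 100 µM zoledronate (7.48 ± 0.12), and lowest in the lot II controls at 48 h (6.98 ± 0.08) and at 24 h (6.82 ± 0.21). The steps from the first group to the second and from the second to fluvastatin at 12 h (7.34 ± 0.12) were larger than either group's SD. The next 5 steps, down to the 24 h controls of lot I, were within the spread, and so was the step between both lot II controls. The step from the 24 h controls of lot I to the 48 h controls of lot II exceeded both SDs. This order sets levels across lots, and joint normalization of the lots is not stated in the labels or notes.

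RXRA, which encodes an RXR partner of LXR, rose in 4 of the 6 treated groups. It gave 7.60, 7.68, 7.52 and 7.89 on the 24 h controls of lot I and 8.15, 8.06, 8.03 and 8.11 with fluvastatin, with no overlap and a rise of 0.42 ± 0.07 (SE; limma, adjusted p = 0.0011). On the lot II controls at 24 h it gave 7.88, 7.54, 7.77 and 7.88, and at 100 µM zoledronate 8.48, 8.34, 8.27 and 8.42, again with no overlap and a rise of 0.61 ± 0.07 (adjusted p = 6.9e-07). At 48 h it rose by 0.25 ± 0.07 (adjusted p = 0.039), with groups that overlapped and with pairs from 0.01 to 0.49. With fluvastatin at 12 h it rose by 0.30 ± 0.07 (adjusted p = 0.049). Without the 48 h pair of replicate number 2 the 48 h difference was 0.17 ± 0.08 (adjusted p = 0.2). The 48 h and 12 h calls of RXRA were lost without the replicate block and in 3 of the 4 fits (48 h) or all 4 fits (12 h) that left out a replicate.

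Of the 9 measured RXR partners and LXR coregulators, 2 rose and 0 fell with fluvastatin at 24 h, 1 rose and 1 fell with zoledronate at 48 h, and 5 rose and 1 fell at 100 µM. All genes gave 6.71% rising and 3.77% falling, 3.16% and 4.43%, and 15.3% and 16.6% in these comparisons. NCOA2, a p160 coactivator of nuclear receptors, rose by 0.28 ± 0.09 with fluvastatin (limma, adjusted p = 0.041) and by 0.58 ± 0.09 at 100 µM (adjusted p = 1.5e-05). NCOA1, its close relative, rose by 0.41 ± 0.09 at 100 µM (adjusted p = 0.00075). RXRB rose there by 0.24 and was 0.15 without replicate 2 (adjusted p = 0.2). The GPS2 rise of 0.17 at 100 µM was lost without the replicate block, with median centring and in each fit that left out a replicate. The NCOA2 call with fluvastatin was lost without the replicate block and without replicate 1, 3 or 4. TBL1X, a subunit of a nuclear receptor corepressor complex, fell by 0.38 ± 0.08 at 48 h (adjusted p = 0.0043) and by 0.77 ± 0.08 at 100 µM (adjusted p = 7e-08). The list's median was 0.12, 0.04 and 0.18 in these 3 comparisons, against −0.01, 0.01 and 0.01 for all genes.

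**Figure D2:**
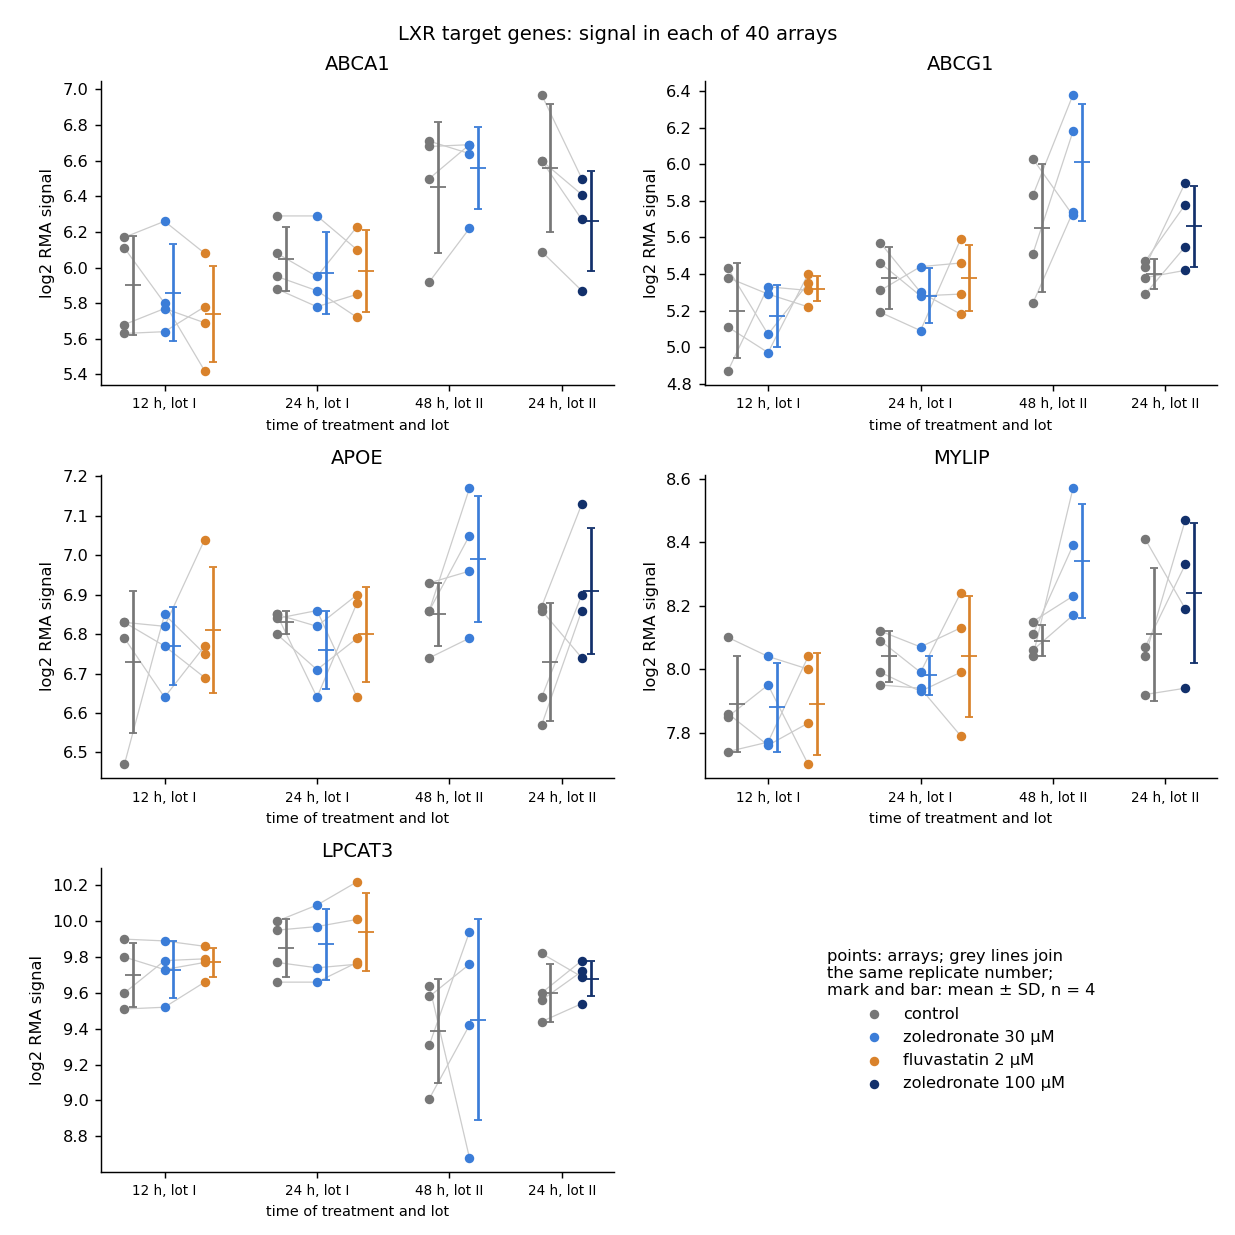
Log2 signal (y axes, each with its own range) of the 5 measured LXR target genes on each of the 40 arrays, by time and lot (x axes); grey lines join arrays of the same replicate number, and the mark with bar is the mean ± SD of 4 arrays. Every ABCA1 array at 100 µM lies below the control it is paired with, and MYLIP at 48 h is the one case where treated arrays and controls do not overlap.

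Among the efflux genes, ABCA1 was the one that passed, and it fell. ABCA1 is the transporter that loads cholesterol and phospholipid onto lipid-poor apolipoprotein A-I, and it is a classic LXR target. On the 24 h controls of lot II its signal was 6.09, 6.60, 6.60 and 6.97, and at 100 µM zoledronate 5.87, 6.27, 6.41 and 6.50. The groups overlapped, because replicate 1 was lowest and replicate 4 highest in both, while each treated array lay below its own control, by 0.22, 0.33, 0.20 and 0.47. The paired difference was −0.30 ± 0.10 (SE; 0.811-fold; limma, adjusted p = 0.019). This call rests on the pairing: the same difference had adjusted p = 0.27 without the replicate block and 0.11 with a random block. It also missed without replicate 2 (−0.29, adjusted p = 0.094) or replicate 4 (−0.25, adjusted p = 0.16). Over all genes, the paired arrays of this comparison deviated together only weakly, with r of −0.09 to 0.26 and 1 of 4 pairs above 0.1.

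In the other groups ABCA1 did not pass. With fluvastatin at 24 h its arrays gave 5.72, 5.85, 6.23 and 6.10 against control arrays of 5.95, 5.88, 6.08 and 6.29, a difference of −0.07 (95% interval −0.27 to 0.13; limma, adjusted p = 0.7). With zoledronate at 48 h they gave 6.22, 6.69, 6.64 and 6.69 against 5.92, 6.50, 6.71 and 6.68, a difference of 0.11 (−0.09 to 0.31; adjusted p = 0.58). The effect at 100 µM was below that at 48 h by −0.41 ± 0.14 (adjusted p = 0.069), which missed the threshold, and it passed when the third of genes with the lowest means was removed (adjusted p = 0.041). Against 30 µM at 24 h the effects differed by −0.22 (−0.51 to 0.06; adjusted p = 0.29). At 12 h the differences were −0.04 (−0.24 to 0.17) with zoledronate and −0.16 (−0.36 to 0.04) with fluvastatin.

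ABCG1 passes cholesterol to mature high-density lipoprotein particles and is the second main LXR-driven efflux transporter. Its signal was low, between 4.87 and 6.38 over the 40 arrays. At 48 h the controls gave 5.24, 5.51, 5.83 and 6.03 and the zoledronate arrays 5.74, 6.18, 6.38 and 5.72. The groups overlapped, and 3 of 4 pairs were higher by 0.50 to 0.67 while replicate 4 was lower by 0.31. The difference of 0.35 (95% interval 0.06 to 0.64) did not pass (limma, adjusted p = 0.13), and was 0.57 ± 0.12 without replicate 4 (adjusted p = 0.014). At 100 µM the arrays gave 5.42, 5.55, 5.78 and 5.90 against 5.38, 5.29, 5.47 and 5.44, higher in 4 of 4 pairs and with overlap. That difference was 0.26 (−0.03 to 0.55; adjusted p = 0.17), and it passed with only the arrays of the comparison (adjusted p = 0.039). With fluvastatin at 24 h the difference was 0.00 in size (−0.29 to 0.29), with 2 of 4 pairs higher.

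APOE, the apolipoprotein that accepts cholesterol and carries it in lipoproteins, varied little: group means ran from 6.73 to 6.99. At 100 µM the arrays gave 6.86, 6.74, 7.13 and 6.90 against control arrays of 6.57, 6.86, 6.87 and 6.64. The groups overlapped, 3 of 4 pairs were higher, and the difference of 0.17 did not pass (limma, adjusted p = 0.14); without replicate 2 it was 0.27 ± 0.10 (adjusted p = 0.045). At 48 h all 4 pairs were higher, by 0.03 to 0.31, and the difference was 0.14 (−0.03 to 0.32; adjusted p = 0.35). The 24 h fluvastatin difference was −0.03 (−0.21 to 0.14; adjusted p = 0.87).

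**Figure D3:**
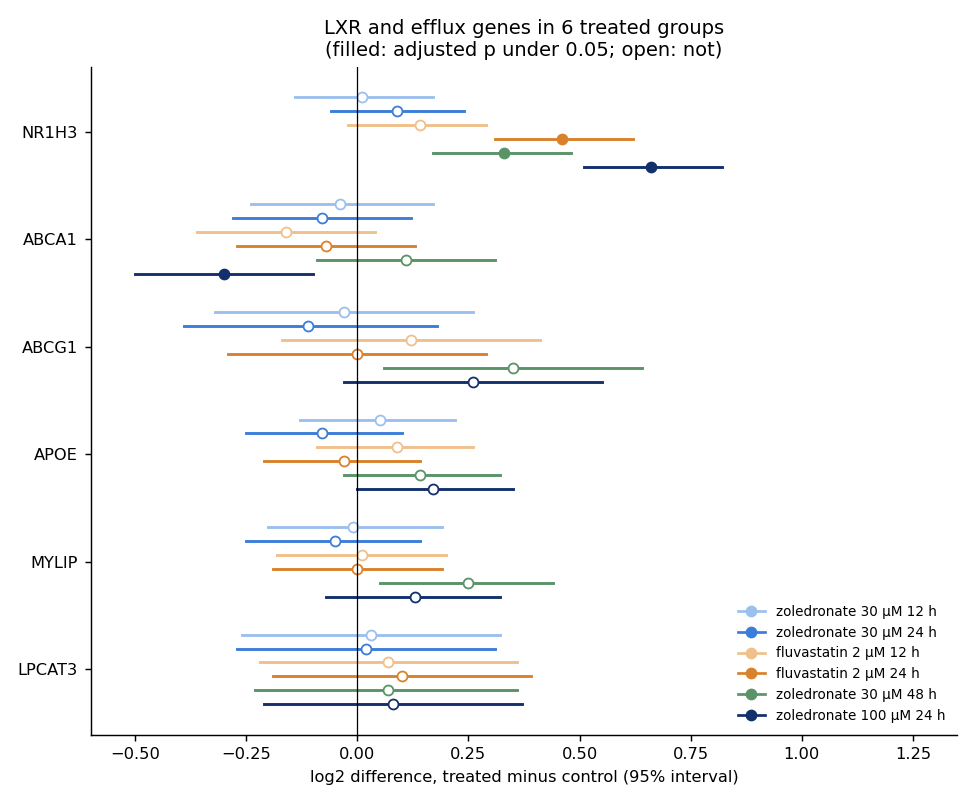
Log2 difference of treated minus control (x axis, point) with its 95% interval (line) for the 6 measured genes (y axis) in the 6 treated groups; filled points have a limma adjusted p under 0.05. The filled points are NR1H3 at 0.46, 0.33 and 0.66 and ABCA1 at −0.30, and the other points are open.

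MYLIP encodes IDOL, a ubiquitin ligase that marks lipoprotein receptors for breakdown and so lowers cholesterol uptake. At 48 h its controls gave 8.06, 8.04, 8.15 and 8.11 and the zoledronate arrays 8.17, 8.57, 8.23 and 8.39. Each treated array lay above each control, by 0.08 to 0.53 within pairs, but the difference of 0.25 (95% interval 0.05 to 0.44) did not pass over all genes (limma, adjusted p = 0.11). At 100 µM the arrays gave 7.94, 8.47, 8.33 and 8.19 against 7.92, 8.04, 8.07 and 8.41, with overlap and a difference of 0.13 (−0.07 to 0.32; adjusted p = 0.36). With fluvastatin at 24 h the difference was 0.00 (−0.19 to 0.19). Of the 7 listed proteins that IDOL acts on or with, 3 were measured, and VLDLR passed among them. VLDLR, a receptor for triglyceride-rich lipoproteins, gave 6.13, 6.17, 6.43 and 6.83 on the lot II controls at 24 h and 8.03, 8.55, 8.54 and 8.46 at 100 µM. The groups lay far apart, and the rise was 2.01 ± 0.17 (SE; limma, adjusted p = 5e-09). It rose by 0.74 ± 0.17 with fluvastatin at 24 h (adjusted p = 0.0067), where the arrays overlapped the controls and the call was lost without the replicate block and without replicate 1 or 3. At 48 h it differed by 0.41 (0.06 to 0.76; adjusted p = 0.15). The lot II controls of VLDLR averaged 6.39 ± 0.32 (SD, n = 4) at 24 h and 7.46 ± 0.82 at 48 h, and this difference passed by limma. Its 48 h controls ran from 6.23 to 7.96. LRP8, the apolipoprotein E receptor 2, differed by 0.21 at 100 µM (adjusted p = 0.12) and UBE2D4, a ubiquitin-conjugating enzyme, by −0.02.

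LPCAT3 puts polyunsaturated fatty acids back into lysophospholipids and is an LXR target in liver and macrophages. At 48 h its controls gave 9.58, 9.64, 9.01 and 9.31 and the zoledronate arrays 9.76, 8.68, 9.42 and 9.94. The groups overlapped, and replicate 2, the treated array with the lowest correlation to its group, stood apart: the pairs differed by 0.18, −0.97, 0.42 and 0.63. Over 4 pairs the difference was 0.07 (95% interval −0.23 to 0.36; limma, adjusted p = 0.85), and without the pair of replicate number 2 it was 0.41 ± 0.08 (adjusted p = 0.0019). At 100 µM the arrays gave 9.54, 9.78, 9.72 and 9.69 against 9.44, 9.60, 9.56 and 9.82, a difference of 0.08 (−0.21 to 0.37; adjusted p = 0.75). With fluvastatin at 24 h it was 0.10 (−0.19 to 0.39; adjusted p = 0.72). Of the 5 other measured lysophospholipid acyltransferases, 0 passed with fluvastatin, 2 rose at 48 h and 2 rose at 100 µM. Rises over all genes made up 6.71%, 3.16% and 15.3% in these comparisons. LPCAT4 rose by 0.37 ± 0.07 at 48 h (adjusted p = 0.0029) and by 0.46 ± 0.07 at 100 µM (adjusted p = 2e-05). LPCAT1 rose by 0.32 ± 0.08 at 48 h (adjusted p = 0.02) and MBOAT7 by 0.22 ± 0.06 at 100 µM (adjusted p = 0.01). The 48 h calls of LPCAT4 and LPCAT1 were lost with only the arrays of the comparison and without replicate 3. LPCAT1 also missed without the replicate block and without replicate 1 or 4, and MBOAT7 missed without replicate 1 or 3.

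The further LXR target genes moved in both directions, and so did all genes. Of 16 measured, 1 rose and 1 fell with fluvastatin at 24 h, 0 passed with zoledronate at 48 h, and 4 rose and 3 fell at 100 µM. Among all genes 6.71% rose and 3.77% fell with fluvastatin, 3.16% and 4.43% at 48 h, and 15.3% and 16.6% at 100 µM. The counts are not read as a property of the list. The list's median was −0.04, 0.10 and −0.03, against −0.01, 0.01 and 0.01 for all genes. SREBF1, which encodes the lipid synthesis factor SREBP-1, gave 7.99, 8.19, 8.23 and 8.30 on the lot II controls at 24 h and 8.44, 8.93, 8.87 and 8.99 at 100 µM. All treated arrays lay above all controls, and the rise was 0.63 ± 0.07 (SE; limma, adjusted p = 8.4e-08). SREBF1 differed by 0.14 with fluvastatin at 24 h (adjusted p = 0.19), and the effect of 100 µM zoledronate exceeded that by 0.49 ± 0.09 (adjusted p = 0.0026). SCD, a fatty acid desaturase, rose by 0.22 ± 0.07 with fluvastatin (adjusted p = 0.048) and by 0.47 ± 0.07 at 100 µM (adjusted p = 1.4e-05), and SMPDL3A, a phosphodiesterase gene, rose by 0.38 ± 0.11 at 100 µM. MERTK, a receptor for the uptake of dead cells, fell by 0.23 ± 0.07 with fluvastatin (adjusted p = 0.043) and by 0.51 ± 0.07 at 100 µM (adjusted p = 4.5e-06). The fluvastatin calls of SCD and MERTK were both lost without the replicate block. SCD also missed in each fit that left out a replicate, and MERTK without replicate 1, 3 or 4. PLTP rose and CETP and ABCG5 fell at 100 µM. The PLTP call was lost without the replicate block and without replicate 3 or 4. CETP missed without replicate 2 or 4, and ABCG5 without replicate 1 or 2. At 100 µM SMPDL3A missed without replicate 2, and SCD without the replicate block.

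Other genes of cholesterol handling also moved in both directions, as all genes did. Of 14 efflux, acceptor and sterol transport genes, 2 rose and 2 fell with fluvastatin at 24 h, 1 rose at 48 h, and 4 rose and 3 fell at 100 µM. The shares of all genes that rose and fell were 6.71% and 3.77%, 3.16% and 4.43%, and 15.3% and 16.6%. SCARB1, the high-density lipoprotein receptor that exchanges cholesterol in both directions, gave 8.99, 8.74, 8.72 and 8.78 on the lot II controls at 24 h and 8.28, 8.26, 8.07 and 8.26 at 100 µM. All treated arrays lay below all controls, by −0.59 ± 0.08 (limma, adjusted p = 4.6e-06), and SCARB1 fell by 0.32 ± 0.08 with fluvastatin at 24 h (adjusted p = 0.015), with overlap. The fluvastatin call was lost without the replicate block and without replicate 1 (−0.21), 3 or 4. STARD4, a soluble sterol carrier that is itself an SREBP-2 target, rose by 0.48 ± 0.08 with fluvastatin at 24 h, 0.41 ± 0.08 at 48 h and 0.61 ± 0.08 at 100 µM (adjusted p = 0.001, 0.0043 and 4.5e-06). CAV1, the main caveolae protein, fell by 0.51 ± 0.10 at 100 µM (adjusted p = 0.00038), and GRAMD1C, a sterol transfer protein, rose by 0.42 ± 0.09 (adjusted p = 0.001). At 100 µM TMEM97 also fell (−0.72), and OSBP (0.29) and GRAMD1B (0.41) rose. The TMEM97 and OSBP calls passed under every alternative. That of GRAMD1B was lost with no or a random replicate block and without replicate 1. The endoplasmic reticulum sterol transfer proteins GRAMD1A and GRAMD1B moved apart with fluvastatin at 24 h, by −0.28 ± 0.06 (adjusted p = 0.008) and 0.55 ± 0.13 (adjusted p = 0.0068).

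Of the 4 cholesterol ester genes, 0 rose and 2 fell both with fluvastatin at 24 h and at 100 µM, and 1 rose and 1 fell at 48 h. For this paragraph's lists, the shares of all genes that rose and fell were 6.71% and 3.77% with fluvastatin at 24 h. They were 3.16% and 4.43% at 48 h, and 15.3% and 16.6% at 100 µM. SOAT1, which makes cholesterol esters, fell by 0.27 ± 0.08 with fluvastatin (limma, adjusted p = 0.028), 0.27 ± 0.08 at 48 h (adjusted p = 0.029) and 0.67 ± 0.08 at 100 µM (adjusted p = 3.3e-07). NCEH1, which breaks them down, fell by 0.29 ± 0.07 with fluvastatin (adjusted p = 0.013) and 0.69 ± 0.07 at 100 µM (adjusted p = 9.9e-08), while LIPA, the lysosomal acid lipase, rose by 0.25 ± 0.07 at 48 h (adjusted p = 0.028). Without the 48 h pair of replicate number 2 neither 48 h call held: SOAT1 differed by −0.22 ± 0.09 and LIPA by 0.20 ± 0.08 (adjusted p = 0.12 for both). The SOAT1 difference with fluvastatin was −0.18 without replicate 1 (adjusted p = 0.33). Of the 6 oxysterol and LXR ligand enzymes, CYP27A1, a mitochondrial sterol hydroxylase, alone passed in these 3 comparisons, rising by 0.41 ± 0.10 at 100 µM (adjusted p = 0.0019). Of the 11 SREBP-2 targets, which respond to falling sterol, 8 rose with fluvastatin at 24 h, 3 at 48 h and 7 at 100 µM, and 0 fell. HMGCS1, the enzyme just before HMG-CoA reductase, rose by 0.75 ± 0.16, 0.60 ± 0.16 and 0.82 ± 0.16 (adjusted p = 0.0051, 0.025 and 0.00035). At 48 h its pairs differed by 0.40, −0.38, 1.08 and 1.31; the difference was 0.93 ± 0.13 without the pair of replicate number 2 (adjusted p = 0.00025) and 0.37 ± 0.18 without replicate 4 (adjusted p = 0.25), and the call was also lost without the block and without replicate 1 or 3. The miR-33a gene, whose product targets ABCA1, did not pass in these comparisons, and of the 3 PPAR receptors PPARD fell by 0.15 ± 0.05 at 100 µM (adjusted p = 0.022).

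**Figure D4:**
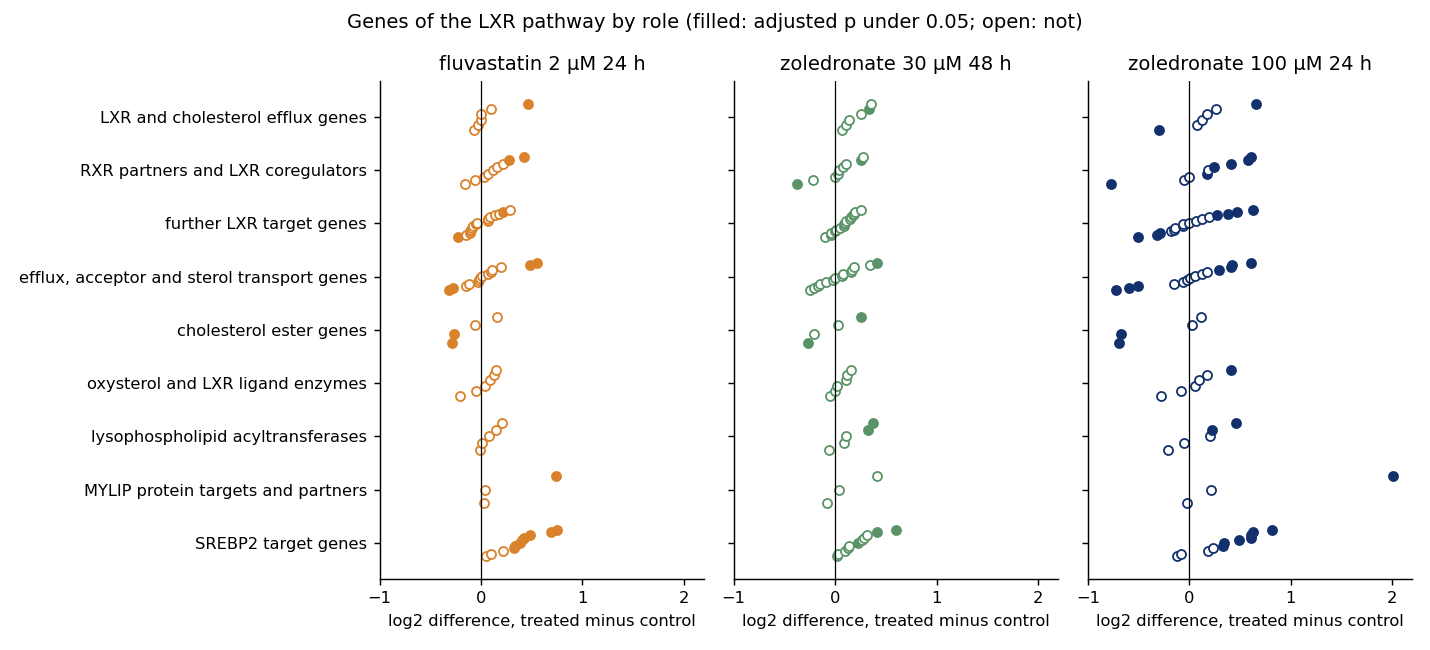
Log2 difference of treated minus control (x axes) for each measured gene of 9 lists of LXR and sterol genes (y axis; the small vertical offsets only separate points) in fluvastatin 2 µM at 24 h, zoledronate 30 µM at 48 h and zoledronate 100 µM at 24 h; filled points have a limma adjusted p under 0.05. The SREBP-2 targets lie mostly to the right of 0 in each panel, the further LXR targets on both sides, and the rightmost point at 2.01 is VLDLR at 100 µM.

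These calls of the other pathway genes differed in how far they held. Of 33 such genes called at 100 µM, 20 passed under every alternative run, among them RXRA, NCOA1, NCOA2, TBL1X, SREBF1, MERTK, SCARB1, SOAT1, NCEH1, CYP27A1, LPCAT4 and VLDLR. Of 18 called with fluvastatin at 24 h, 2 (RXRA and MSMO1) passed under every alternative but the one that uses only the arrays of that comparison, and 2 passed without the replicate block. Of 9 called with zoledronate at 48 h, 0 passed under every alternative and 1 without the replicate block.

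Some markers of other cell types moved in the same groups as NR1H3. For scale, 6.71% of all genes rose and 3.77% fell with fluvastatin at 24 h. At 48 h these shares were 3.16% and 4.43%, and at 100 µM 15.3% and 16.6%. With 6 genes per list, the counts are not read as a property of a list. Of 6 macrophage and blood cell markers, 2 rose with fluvastatin at 24 h, 1 at 48 h and 2 at 100 µM: LYZ (lysozyme) rose by 0.71 ± 0.18, 0.74 ± 0.18 and 1.93 ± 0.18 (limma, adjusted p = 0.013, 0.013 and 1.8e-08), and CD14 with fluvastatin and at 100 µM. The summed signal of the list, on the linear scale, was 176 to 207 on the 24 h controls of lot I and 209 to 271 with fluvastatin, 193 to 225 on the 48 h controls and 234 to 260 with zoledronate, and 192 to 207 on the 24 h controls of lot II and 226 to 276 at 100 µM. PTPRC, the marker of all white blood cells, stayed between 3.07 and 3.83 and CD163 between 3.73 and 4.62 on all 40 arrays, and neither passed. Of 6 fibroblast and endothelial markers, 1, 1 and 2 rose, and the sums were 405 to 421 and 436 to 509, 370 to 421 and 388 to 489, and 384 to 407 and 479 to 507. PECAM1 rose each time, by 0.98 ± 0.16, 0.59 ± 0.16 and 1.30 ± 0.16, PDGFRB rose at 100 µM as well, and CDH5 and VWF stayed between 4.91 and 5.42 and between 4.48 and 5.28. Of 6 adipocyte and hepatocyte markers 1 rose and 1 fell with fluvastatin at 24 h (sums 209 to 251 and 193 to 301), 0 passed at 48 h and 0 at 100 µM. Of the line's own markers KRT8 rose in the same 3 groups, by 0.27 ± 0.08, 0.35 ± 0.08 and 0.55 ± 0.08. Of the luminal receptors ERBB2 rose by 0.46 ± 0.07 at 100 µM. Of the marker calls, 0 of 6 with fluvastatin at 24 h, 0 of 3 at 48 h and 5 of 6 at 100 µM (not CD14) passed under every alternative. CD14 with fluvastatin was 0.33 without replicate 1 (adjusted p = 0.18). LYZ missed without replicate 1 or 4 with fluvastatin and without replicate 1, 3 or 4 at 48 h. The part of these genes in the NR1H3 result was not tested.

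NR1H3 has close neighbours: in RefSeq (GRCh38.p14) ACP2 overlaps its start and MADD begins just after its end. ACP2, a lysosomal phosphatase gene, rose by 0.29 ± 0.07 with fluvastatin at 24 h (limma, adjusted p = 0.0086) and 0.23 ± 0.07 at 100 µM (adjusted p = 0.012), and differed by 0.04 (95% interval −0.11 to 0.18) at 48 h, where NR1H3 rose. MADD, a regulator of Rab GTPases, rose by 0.27 ± 0.06, 0.22 ± 0.06 and 0.43 ± 0.06 with fluvastatin at 24 h, at 48 h and at 100 µM (adjusted p = 0.0037, 0.022 and 2.5e-06). Only the MADD call at 100 µM passed under every alternative: the 48 h call of MADD was lost without the block (adjusted p = 0.38) and without replicate 1, 3 or 4, and ACP2 at 100 µM was 0.15 without replicate 2 (adjusted p = 0.15). EMG1 overlaps LPCAT3 and NIPSNAP3B overlaps ABCA1. Where the probes lie within these genes was not examined here.

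The genes whose 24 paired differences resembled those of NR1H3 most were FLOT2 (Pearson r = 0.95), WDR13 (0.94) and CD9 (0.94). FLOT2, a membrane raft scaffold gene, differed by 0.34 with fluvastatin at 24 h, 0.22 at 48 h and 0.58 at 100 µM, and CD9, a tetraspanin gene, by 0.53, 0.46 and 1.00. For ABCA1 they were GTF3C2 (0.80), FBXO31 (0.79) and BICDL1 (0.77), with differences at 100 µM of −0.18, −0.24 and −0.11. The 16 lot I differences share control arrays, so these values describe likeness in this table and carry no test.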

How the data were processed

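The deposited log2 values, 1 per probe set, were made with RMA in Affymetrix Power Tools 1.10.2 and tested in limma, per the submitters' processing notes. Genome build: not given in the sources used here; likewise joint normalization of both lots. Of 33297 probe sets, 19460 had 1 gene symbol in the platform annotation, 1754 several and 12083 none listed; 19429 matched RefSeq (GRCh38.p14). For 769 genes the probe set with the highest mean was kept, leaving 18417 genes, with no filter on dim ones.

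The treated comparisons used limma 3.58.1 in R 4.3.3 over all 40 arrays: 16 blocks (lot, time and replicate number) and 6 treated effects, with 18 residual degrees of freedom, two-sided tests and Benjamini-Hochberg adjustment over 18417 genes (threshold 0.05). Controls were compared with a fit of 10 group means (30 residual degrees of freedom). The block follows the design text, which states that pairing removed the day of measurement. Treated and control arrays of one number deviated together from their groups, with r of 0.17 to 0.60 in every lot I pair. In lot II r was −0.30 to 0.55 at 48 h (2 of 4 pairs above 0.1) and at −0.09 to 0.26 at 100 µM (1 of 4). The script was tested on simulated data.

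The number of arrays limits the precision, since no read depth or detection p goes with these values. Members, lists and tests were chosen with earlier results of these data known. The rule for named genes took all 7 members. It allowed up to 4 genes per other list and comparison with the smallest adjusted p past the threshold. It also allowed the measured IDOL targets, RHOB and HMGCS1, and for NR1H3 and ABCA1 the 3 genes of highest Pearson r. Not every gene that it allowed is named. The neighbours ACP2, MADD, EMG1 and NIPSNAP3B, and some remaining members of counts up to 5, are named outside it. Alternatives were a fit with no replicate block or with a random one, the compared arrays alone, other normalizations, a filter on dim genes, other probe set choices, array weights, a variance trend over intensity, and leaving out each replicate. Leaving out the 48 h pair of replicate number 2 was added after seeing the data.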

Additional observations from a re-analysis of the deposited data

Results flagged for a closer look

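In 3 contrasts the effect on NR1H3 differed between treatments by limma: −0.37 for 30 µM zoledronate against fluvastatin at 24 h, 0.57 for 100 µM against 30 µM zoledronate at 24 h, and 0.34 for 100 µM at 24 h against 30 µM at 48 h.

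Among 60 gene and group combinations, 2 had 1 array far from the other 3 by Dixon's criterion for 4 values, which flags about 1 group in 20 by chance. ABCA1 was 6.22 on replicate 1 of the 48 h zoledronate group, with the others at 6.64 to 6.69, and the paired control of that array was also the lowest of its group, at 5.92. APOE was 6.47 on replicate 1 of the 12 h controls of lot I, with the others at 6.79 to 6.83.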

How the results depend on the processing

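Over the 6 genes and all comparisons, 1322 alternative values were computed: 1288 kept their direction and side of the threshold or passed in neither fit, 25 lost the call, 8 gained one and 1 reversed. With only its own arrays, the comparison of 100 µM with control gained ABCG1 (limma, adjusted p = 0.039) and kept NR1H3 and ABCA1. Otherwise the number of genes called changed as follows. With only the arrays of the comparison it was 0 for fluvastatin at 24 h (from 1), 0 for zoledronate at 48 h (from 1), 2 for 100 µM against 30 µM at 24 h (NR1H3 and ABCG1, from 1) and 0 for 100 µM against 48 h (from 1). With no replicate block it was 0 for zoledronate at 48 h, 1 for 100 µM (NR1H3, from 2) and 0 for 100 µM against 48 h; with a random replicate block it was 1 and 0 for the last 2. For 100 µM against 48 h it was also 0 with median centring and with every probe set tested, and 2 with the third of genes of lowest mean removed, a filter that leaves no value for ABCG1. Array weights gave 1 (NR1H3) for 100 µM against fluvastatin, from 0. Leaving out each replicate in turn gave 0 to 2 for zoledronate at 48 h, 1 to 2 at 100 µM, 0 to 1 for zoledronate against fluvastatin at 24 h, 0 to 0 for 100 µM against 48 h, and 0 to 2 for the controls of both lots. Without the 48 h pair of replicate number 2 it was 2 at 48 h (NR1H3 and LPCAT3), and the LPCAT3 difference of 100 µM against 48 h turned from 0.01 to −0.33 (adjusted p = 0.028). The control comparison of lot II with lot I has no replicate block fit, because the block itself holds the lot. The causes of these changes were not tested. Counts over all genes moved more: fluvastatin at 24 h called 1930 genes with the block and 663 without, and zoledronate at 48 h 1397 and 349. At 100 µM these counts were 5888 and 4380. Median centring changed the split of rises and falls from 1236 and 694 to 1003 and 1002 with fluvastatin at 24 h, from 582 and 815 to 476 and 1114 at 48 h, and from 2826 and 3062 to 2339 and 3693 at 100 µM.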
